A study of Mus musculus with 6 samples.

Results

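The 32 genes described here encode the proteins that drive, brake or carry out cell division. They were chosen by name, as a proliferation list for the glia and other non-neuronal cells of the ganglion, and all 32 were found among the 36793 gene identifiers of the deposited table. All 32 also passed the filter on low counts that left 16809 genes for testing. RNA was sequenced from mouse dorsal root ganglia taken at lumbar levels 3 to 4, the clusters of sensory neurons, satellite glia and Schwann cells beside the spinal cord. The knockout libraries KO 4, KO 5 and KO 6 came from mice labelled NMDA-R Knockout, in which the series title places a deletion of the gene for the GluN1 subunit in Schwann cells, and the wild-type libraries WT 1, WT 2 and WT 3 from mice labelled Wildtype. The sources used here give no Cre driver, strain, age or sex.

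Total expected counts ran from 28526704 to 36249163 per library. KO 5 and KO 6 stood apart as a pair. In a chi-square test of their counts over 10258 genes, 0 genes differed at a false discovery rate (FDR) of 0.05 and the mean chi-square was 1.15, against 3382 to 7317 differing genes and means of 13.2 to 104.0 in the other pairs of libraries. KO 5 and KO 6 thus agreed nearly to within sampling noise, which alone gives a mean chi-square of 1, and were counted as 1 sample by summing their counts, so that comparisons are between 2 KO and 3 WT samples. The labels also give Schwann cells as the cell type, but 10 sensory neuron markers summed to 17718 to 20983 CPM (counts per 1e6, normalised by the trimmed mean of M-values) in KO libraries and 14124 to 19249 CPM in WT libraries. The 12 Schwann cell markers summed to 6933 to 7038 CPM in KO libraries and 5368 to 6100 CPM in WT libraries, so the RNA is that of the whole ganglion. Grin1, the targeted gene, was at 82.1, 117 and 117 CPM in KO libraries 4, 5 and 6, against 68.7, 115 and 74.97 CPM in WT libraries 1, 2 and 3. Its groups overlapped, and in whole ganglia that include neurons this level does not check the labels.

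A cell enters division when D-type cyclins activate the kinases CDK4 and CDK6, which release E2F transcription factors from the retinoblastoma proteins. E2F then turns on the genes of DNA replication, among them the MCM helicase, and a later wave led by B-type cyclins and their kinase CDK1 drives mitosis. Sensory neurons have left the cycle for good, while satellite glia, Schwann cells, macrophages and endothelial cells of the ganglion can re-enter it, above all after nerve injury. Several of these genes are also made outside division, so a transcript in whole tissue does not count dividing cells.

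The promoter sequences of these genes were searched for short sequence words. The RefSeq table for GRCm38.p6 held windows of 300 bases, from 250 bases before to 50 after a start site, for 25 of the 32 genes. Ccnd1, Ccnd2, Ccne2, Ccna2, Aurkb, Tpx2 and Mcm4 had no entry. Both strands were searched for CCAAT, for TTTGAA, the core of the cell cycle homology region known from late cell cycle genes, and for the E2F words TTTCCCGC, TTTCGCGC, TTTGCCGC and TTTGGCGC. Of the 28 windows, since 3 genes have 2 each, 82.1% held CCAAT, against 37.4% of all 32851 windows of the same length. TTTGAA was in 35.7% of them, against 17.9% of all windows, and an E2F word in 17.9%, against 2.26% of all windows. By role, TTTGAA was found in 9 of 12 windows of mitotic genes and in 1 of 16 windows of the other genes, whose only match was Mcm2, while E2F words were in 4 of 7 windows of the helicase and clamp group. A match describes the letters only. The windows of 5 genes that the results turn on are printed here. In Cdk1 and Cenpf KO and WT samples did not overlap in CPM. Mki67 and Top2a varied among WT libraries, and Mcm6 had a log2 fold change near 0. Capitals mark matches to the words above on either strand, and in Mcm6 2 of its 3 E2F matches overlap each other. Each is read 5′ to 3′ on the minus strand of GRCm38.p6, with Cdk1 at chr10:69352863-69353162, Cenpf at chr1:189688037-189688336, Mki67 at chr7:135716330-135716629, Top2a at chr11:99024140-99024439 and Mcm6 at chr1:128359656-128359955.
Cdk1: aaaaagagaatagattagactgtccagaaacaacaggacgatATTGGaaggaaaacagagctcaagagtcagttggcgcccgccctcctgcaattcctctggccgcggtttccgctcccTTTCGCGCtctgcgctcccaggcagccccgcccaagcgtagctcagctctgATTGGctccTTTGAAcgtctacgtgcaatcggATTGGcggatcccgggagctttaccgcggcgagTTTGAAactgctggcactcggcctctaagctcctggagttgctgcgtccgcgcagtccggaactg
Cenpf: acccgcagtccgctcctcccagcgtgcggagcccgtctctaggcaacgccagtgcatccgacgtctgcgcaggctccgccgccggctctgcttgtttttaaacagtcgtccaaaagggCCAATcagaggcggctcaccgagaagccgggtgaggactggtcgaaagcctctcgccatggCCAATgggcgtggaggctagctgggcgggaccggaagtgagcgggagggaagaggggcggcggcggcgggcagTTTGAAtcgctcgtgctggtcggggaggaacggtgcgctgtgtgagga
Mki67: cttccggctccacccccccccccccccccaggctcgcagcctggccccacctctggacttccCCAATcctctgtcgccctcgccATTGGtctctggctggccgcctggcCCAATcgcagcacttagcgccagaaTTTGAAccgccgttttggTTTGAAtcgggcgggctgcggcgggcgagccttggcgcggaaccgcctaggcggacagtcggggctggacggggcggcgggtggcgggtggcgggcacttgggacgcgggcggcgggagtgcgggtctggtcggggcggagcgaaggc
Top2a: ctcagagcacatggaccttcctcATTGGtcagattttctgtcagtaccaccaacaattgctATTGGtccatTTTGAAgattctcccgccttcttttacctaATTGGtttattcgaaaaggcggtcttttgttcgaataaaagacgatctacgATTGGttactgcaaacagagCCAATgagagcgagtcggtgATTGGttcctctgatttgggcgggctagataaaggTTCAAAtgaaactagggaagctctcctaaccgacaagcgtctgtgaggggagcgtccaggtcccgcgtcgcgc
Mcm6: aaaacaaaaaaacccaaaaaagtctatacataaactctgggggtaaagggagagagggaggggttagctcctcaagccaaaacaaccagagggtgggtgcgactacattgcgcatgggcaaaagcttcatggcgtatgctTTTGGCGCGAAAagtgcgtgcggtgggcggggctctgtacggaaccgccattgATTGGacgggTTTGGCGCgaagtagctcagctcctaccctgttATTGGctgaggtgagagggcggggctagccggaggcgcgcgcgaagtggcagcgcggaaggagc

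The comparison of KO with WT asks whether the deletion goes with a change in expression in the ganglion. No cell cycle gene passed: 0 of 32 were called by the edgeR quasi-likelihood test at an FDR of 0.05, where 0.0952% of all 16809 genes were, 0 by DESeq2, where 1.52% of all genes were, and 0 by edgeR with 6 separate libraries, where 0.871% of all genes were. At an unadjusted p under 0.05 there were 3, Ccnd1, Cenpf and Tpx2, against 9.14% of all genes. All 3 were higher in KO, and 5.15% of all genes were under this p and higher in KO. Of the 32 genes 23 had a positive log2 fold change and 9 a negative one, against 50.2% positive over all genes. Their median was 0.12 on the log2 scale, against 0.0012 over all genes tested. That median was 0.0011 without KO 4, 0.057 without WT 3 and 0.27 without WT 1. The sign of the log2 fold change turned in 17 of the 32 genes when single samples were left out. In 5 genes both KO samples lay above the 3 WT samples, against 11.8% of all genes, and in 0 genes below them, against 15.5% of all genes. Those 5 were Ccnd1, Ccnd3, Cdk1, Cenpf and Tpx2. The approximate 95% intervals of the log2 fold changes had a median width of 0.56 to either side, so small changes were mostly not detectable with these samples. This width is not a limit above which changes pass at the FDR. Ccnb1, with a log2 fold change of 0.61, and Cenpf, with 0.81, did not pass either.

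**Figure D1:**
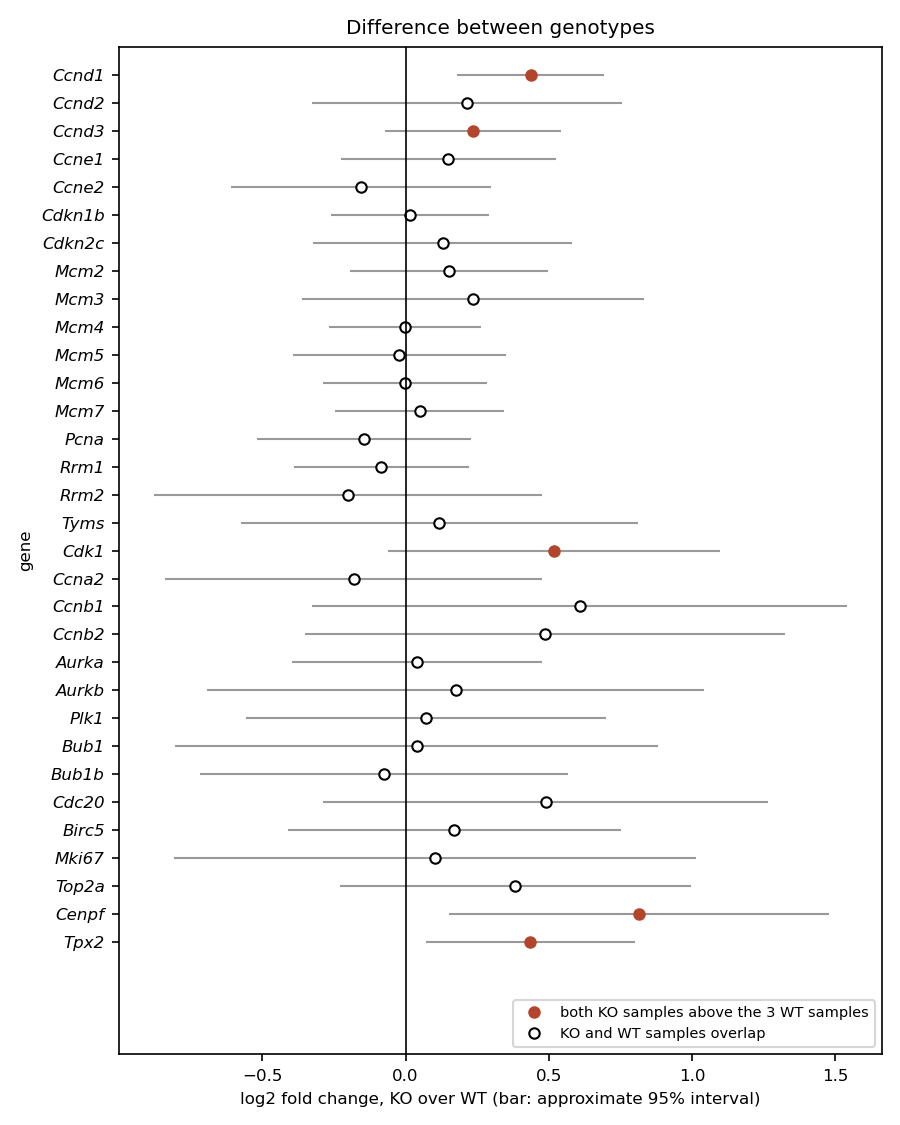
Log2 fold change, KO over WT, of the 32 cell cycle genes from edgeR, with approximate 95% intervals from 2 KO and 3 WT samples. Filled points are the 5 genes whose KO samples both lie above the WT samples, and 0 of the 32 passed at an FDR of 0.05.

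Among the G1 cyclins was Ccnd1, the gene with the smallest p of the 32. It lies on chromosome 7 at 144929931 to 144939925 (GRCm38) and encodes cyclin D1, the cyclin that mitogens induce. It was at 54.1, 47.4 and 49.7 CPM in KO libraries 4, 5 and 6, against 37.7, 37.0 and 38.9 CPM in WT libraries 1, 2 and 3. Every KO library lay above every WT library, and the WT libraries were close to each other. The mean was 51.3 ± 3.93 CPM (SD, n = 2) in KO and 37.9 ± 0.954 CPM (SD, n = 3) in WT, a log2 fold change of 0.44 with a standard error of 0.11 (edgeR adjusted p = 0.314). The lower bound of its interval was 0.18. With 6 separate libraries, a fit that counts the like libraries KO 5 and KO 6 separately, the edgeR adjusted p was 0.0779. With DESeq2 it was 0.0542, and leaving out single samples gave log2 fold changes of 0.36 to 0.51.

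Cyclin D3 showed a smaller difference in the same direction. Ccnd3 was at 18.2, 17.1 and 17.8 CPM in KO libraries, against 16.0, 16.1 and 13.4 CPM in WT libraries. The groups did not overlap, but the gap between KO 5 and WT 2 was small, and the log2 fold change of 0.24 (standard error 0.13) did not pass (edgeR adjusted p = 0.61). Ccnd2, for cyclin D2, was at 9.27 to 11.3 CPM in KO libraries and 6.73 to 11.3 CPM in WT libraries, with overlap. The E-type cyclins, partners of CDK2 at the start of S phase, went opposite ways without passing, at 0.15 for Ccne1 and -0.16 for Ccne2 on the log2 scale.

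Some of these genes share exonic bases with a neighbour on the other strand. Ccnd1 shares 1100 with LTO1 in the GENCODE vM21 annotation, which had a log2 fold change of -0.049. Ccnd3 shares 361 with Bysl, which had 0.29. The library kit marks strand, but the sources used here give no strand setting for the quantification, so reads of such pairs cannot be told apart. The same holds for Ccne2 with Ints8 (609 bases), Ccna2 with Exosc9 (510), Mcm7 with Ap4m1 (321) and Cops6 (64), and Cdc20 with Elovl1 (53). In 9 of the 32 genes the expected counts were not whole in every library, and Ccnd1 and Ccnd3 are among them.

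Of the members that brake the cycle, Cdkn1b encodes p27, the inhibitor that holds resting cells in G1. It was at 81.9, 88.6 and 90.9 CPM in KO libraries and at 77.5, 87.6 and 89.9 CPM in WT libraries. KO and WT spanned nearly the same range, and the interval of its log2 fold change, from -0.26 to 0.29, holds 0 (edgeR adjusted p = 0.9751). Cdkn2c, for the CDK4 and CDK6 inhibitor p18, was far lower in counts, at 103 to 158 per library, and its groups overlapped as well.

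The replicative helicase and its clamp differed little between genotypes. Mcm4, a subunit of the MCM ring that unwinds DNA, was at 19.95, 17.8 and 18.1 CPM in KO libraries and at 19.1, 18.5 and 19.3 CPM in WT libraries. No library stood out. Its log2 fold change was -0.0034, with an interval from -0.27 to 0.26. Mcm2, Mcm3, Mcm5, Mcm6 and Mcm7 had log2 fold changes of -0.022 to 0.24, and the KO and WT samples of all 6 subunits overlapped. Pcna, the sliding clamp of DNA polymerase, was at 49.5, 39.1 and 37.8 CPM in KO libraries and at 54.6, 45.9 and 45.2 CPM in WT libraries. KO 4 and WT 1 were each the highest of their group, and the groups overlapped (log2 fold change -0.14).

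The 3 genes of nucleotide supply for DNA synthesis overlapped too. Rrm1 and Rrm2, the subunits of ribonucleotide reductase, were at -0.085 and -0.20 on the log2 scale, and Tyms, thymidylate synthase, at 0.12. Rrm2, the subunit made mainly in dividing cells, was at 3.43, 2.46 and 2.34 CPM in KO libraries and at 4.30, 2.95 and 2.69 CPM in WT libraries. As with Pcna, KO 4 and WT 1 were the highest of their groups.

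Among the cyclins of S, G2 and M phase with their kinase, Cdk1 was at 2.81, 1.88 and 2.21 CPM in KO libraries, against 1.502, 1.87 and 1.65 CPM in WT libraries. KO 5 and WT 2 nearly touched. These levels rest on 65 to 82 counts per KO library and 48 to 59 per WT library, and the log2 fold change of 0.52 (standard error 0.24) did not pass (edgeR adjusted p = 0.574). Without KO 4 it was 0.29. In TPM, where estimated transcript lengths enter, the groups overlapped. KO libraries were at 5.32, 4.17 and 4.09 TPM, against 2.96, 3.41 and 4.56 TPM in WT libraries. The B-type cyclins that activate the kinase overlapped between genotypes, at 0.61 for Ccnb1 and 0.49 for Ccnb2 on the log2 scale. Leaving out single samples gave 0.42 to 1.09 for Ccnb1 and 0.073 to 0.85 for Ccnb2, whose lowest value was that without KO 4. Ccnb1 was at 2.13, 1.42 and 1.93 CPM in KO libraries and at 1.89, 0.889 and 0.895 CPM in WT libraries, so that WT 1 lay among the KO values. Ccna2, for cyclin A2, was at -0.18.

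The mitotic kinases and checkpoint genes all overlapped between genotypes. Aurka and Aurkb, the Aurora kinases of spindle poles and chromosomes, were at 0.039 and 0.18 on the log2 scale, and Plk1, a kinase that acts throughout mitosis, at 0.070. The spindle checkpoint kinase Bub1 was at 0.038, and its relative Bub1b at -0.075. Cdc20, which activates the ligase that ends mitosis, was at 0.49, and Birc5, the survivin subunit of the chromosomal passenger complex, at 0.17. Aurkb had the smallest counts of the 32, with 27 to 35 in KO libraries and 17 to 37 in WT libraries.

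Cenpf and Tpx2 were higher in both KO samples. Cenpf, a kinetochore-associated protein of late cell cycle stages (chromosome 1, 189640606 to 189688086), was at 5.18, 3.91 and 3.26 CPM in KO libraries, against 3.06, 1.84 and 2.51 CPM in WT libraries. Every KO library lay above every WT library, with KO 6 and WT 1 close together. In TPM, where estimated transcript lengths enter, KO libraries were at 0.98, 1.34 and 0.86 TPM and WT libraries at 0.91, 0.46 and 0.49 TPM. There KO 6 lay below WT 1, while KO 4 and KO 5 lay above all WT libraries. The mean was 4.39 ± 1.12 CPM (SD, n = 2) in KO and 2.47 ± 0.613 CPM (SD, n = 3) in WT, a log2 fold change of 0.81 with a standard error of 0.28 (edgeR adjusted p = 0.479). Tpx2, a spindle assembly factor that activates Aurora A, was at 6.69, 5.91 and 5.44 CPM in KO libraries, against 4.72, 4.41 and 4.55 CPM in WT libraries. The WT libraries were close to each other, and KO exceeded WT by 0.44 on the log2 scale (standard error 0.15; edgeR adjusted p = 0.488). Without KO 4 it was 0.32 for Tpx2 and 0.54 for Cenpf.

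Mki67 and Top2a, the usual markers of proliferating cells, varied widely among the WT libraries. Mki67, which coats mitotic chromosomes, was at 22.6, 14.1 and 13.2 CPM in KO libraries and at 25.2, 14.5 and 10.7 CPM in WT libraries. WT 1 was the highest of all 6 libraries and WT 3 the lowest, and the groups overlapped. KO exceeded WT by 0.10 on the log2 scale, with an interval from -0.81 to 1.01, and it ran from -0.29 without KO 4 to 0.54 without WT 1. Top2a, the topoisomerase that untangles replicated DNA, was at 9.94, 9.04 and 9.23 CPM in KO libraries and at 10.0, 6.25 and 5.61 CPM in WT libraries. The KO libraries were close to each other and to WT 1, while WT 2 and WT 3 were lower (log2 fold change 0.38, and 0.70 without WT 1; edgeR adjusted p = 0.677).

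**Figure D2:**
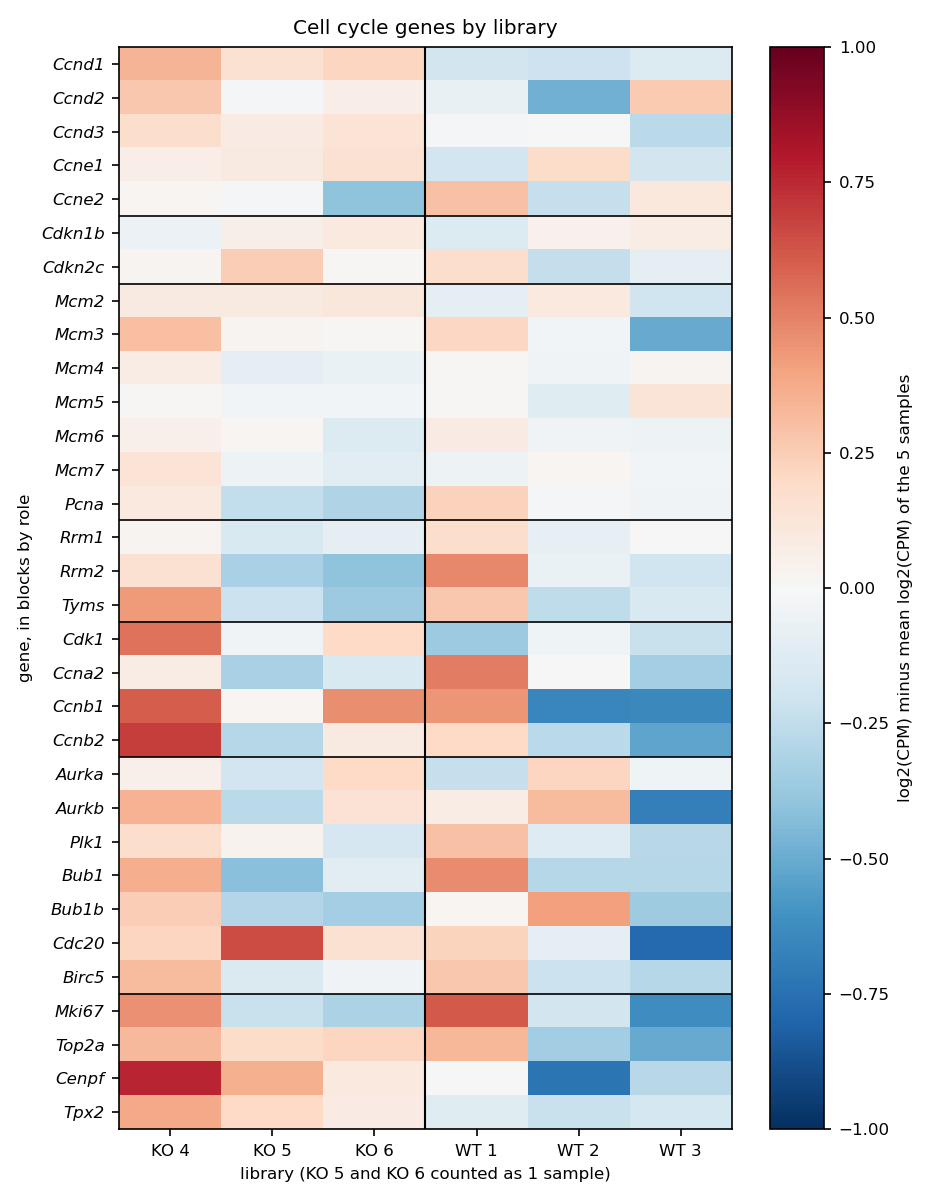
Log2 CPM of each gene in each library minus its mean over the 5 samples, with KO 5 and KO 6 drawn apart and genes in blocks by role from G1 cyclins at the top to chromosome and spindle proteins at the bottom. KO 4 and WT 1 are red in many rows of the lower blocks, while most of the helicase block is pale, Mcm3 in WT 3 being an exception.

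The spread within each genotype was shared by many of the 32 genes. KO 4 lay above the sum of KO 5 and KO 6 in 27 of them, against 50.6% of all genes, with a median ratio of 1.18 against 1.00 over all genes. WT 1 was the highest WT library in 19, against 33.2% of all genes. Both held for 17, against 27.1% of all genes: 10 of the 15 genes of mitosis and its cyclins, 6 of the 10 of replication and nucleotide supply, and 1 of the 7 G1 cyclins and inhibitors, which was Ccne2. The largest ratios within a genotype were those of Ccnb2 and Mki67 for KO 4 over KO 5 and KO 6, at 1.72 and 1.65, and of Mki67 for WT 1 over WT 3, at 2.35. With 5 samples no correlation between genes or libraries was computed.

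Some marker lists of other cells, but not all, were also highest in KO 4 and WT 1 of their genotypes. The 10 genes of bone marrow myeloid cells, among them the neutrophil granule and calprotectin genes Ngp, Camp, S100a8 and S100a9, summed to 587, 218 and 214 CPM in KO libraries 4, 5 and 6 and to 515, 382 and 145 CPM in WT libraries 1, 2 and 3. KO 4 and WT 1 were the highest of their genotypes and WT 3 the lowest of all, as for Mki67. None of the 10 was at 0 in any library. Mpo and Elane, made by dividing precursors of neutrophils, had another order, at 10.7, 5.45 and 5.03 CPM for Mpo in KO libraries and 7.39, 11.4 and 2.86 CPM in WT libraries, and at 3.46, 1.59 and 1.64 CPM for Elane in KO libraries and 2.61, 3.97 and 0.861 CPM in WT libraries. For both, WT 2 was the highest. Among WT libraries WT 2 was also the highest for Prtn3 and Ctsg. Of the 10 genes, 6 were highest in both KO 4 and WT 1 of their genotypes.

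The 10 macrophage markers summed to 106, 81.1 and 82.2 CPM in KO libraries and to 99.9, 83.4 and 93.3 CPM in WT libraries. Haemoglobin and other erythroid genes summed to 15169 CPM in KO 4 and to 4031 and 4009 CPM in KO 5 and KO 6. In WT libraries 1, 2 and 3 they summed to 3794, 3231 and 5975 CPM, so WT 3 was the highest there. The sum of sensory neuron markers was lower in KO 4 than in KO 5 and KO 6, and lowest of all in WT 1. Of these 10 markers, 2 went the other way in KO, Isl1 and Elavl4, which were higher in KO 4. Isl1 was also highest in WT 1 of the WT libraries. In bulk tissue, fewer cells of a type and less RNA per cell cannot be told apart. The part that marrow, blood, macrophages or the share of neuronal RNA have in the spread of the cell cycle genes was not tested.

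**Figure D3:**
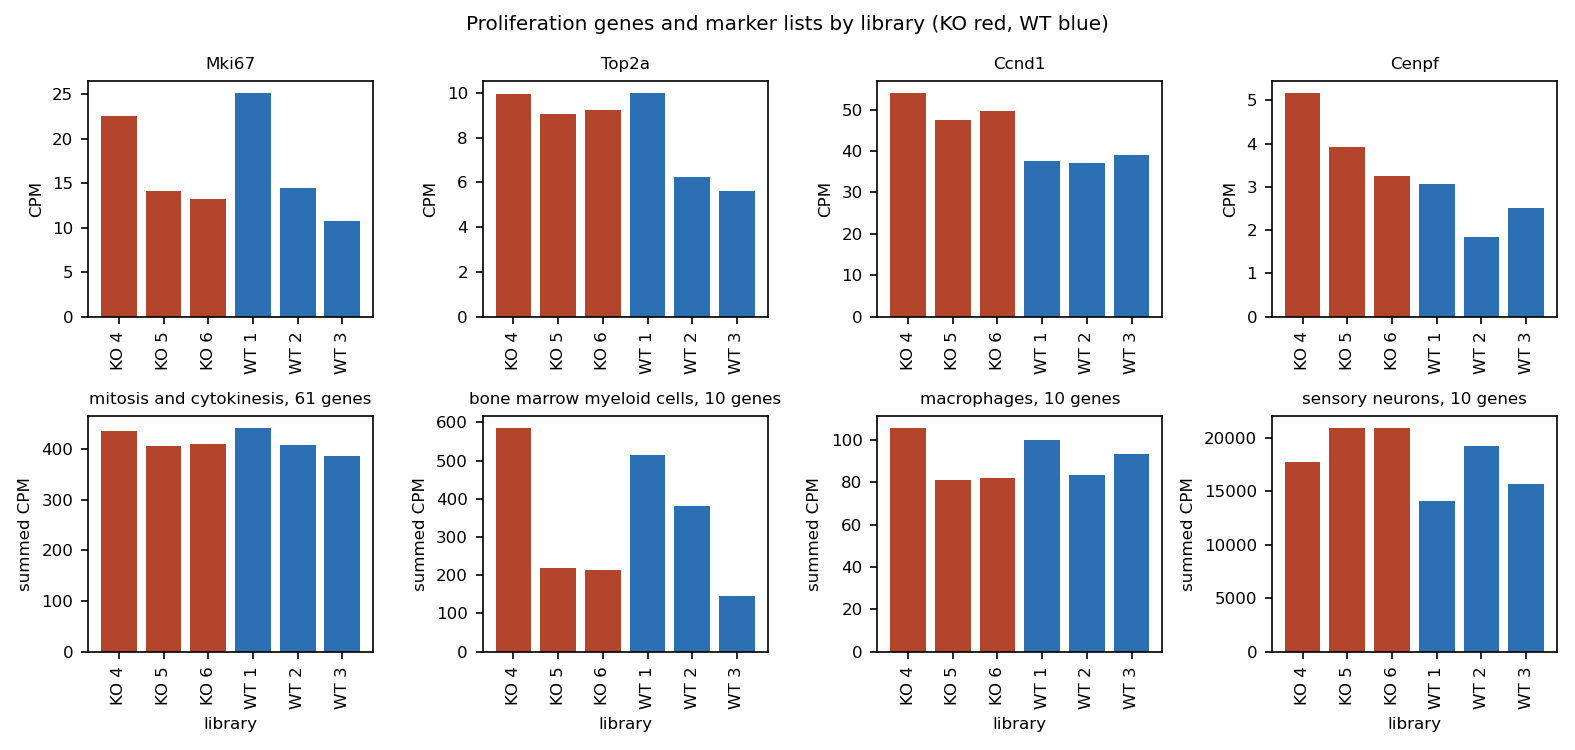
CPM of 4 cell cycle genes and summed CPM of 4 lists in each library, with KO libraries in red to the left of WT libraries in blue. Mki67 and the myeloid list are highest in WT 1 and KO 4, while Ccnd1 separates the genotypes, with KO libraries at 47.4 to 54.1 CPM and WT libraries at 37.0 to 38.9 CPM.

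Other lists of cells that can divide differed between genotypes by small amounts. The 12 Schwann cell markers were all positive with a median log2 fold change of 0.34, as were the 8 satellite glia markers at 0.27 and the 8 endothelial markers at 0.39. Of these lists 0 genes passed the edgeR test at an FDR of 0.05, while 5, 2 and 3 were at an unadjusted p under 0.05, against 0.0952% and 9.14% of all genes. Their WT sums were lowest in WT 1 for the Schwann cell and satellite glia lists, so these lists do not share the WT order of Mki67. Sums were 3137 to 3450 CPM in KO libraries and 2780 to 2948 CPM in WT libraries for satellite glia, and 115 to 117 CPM in KO libraries and 79.8 to 95.01 CPM in WT libraries for endothelium. Ccnd1 differed between genotypes in the same direction as these lists. The part that the amount of glia or vessel has in its difference was not tested. Of the remaining lists, fibroblast markers summed to 1578 to 2026 CPM in KO libraries and 1604 to 2035 CPM in WT libraries, but their genes went both ways. The collagen genes Col1a1, Col3a1 and Col1a2 were at 0.61, 0.63 and 0.43 on the log2 scale with all KO libraries above all WT libraries, and the other 5 were negative with overlap, Dcn at -0.47 among them. Mural cell markers summed to 208 to 212 CPM in KO libraries and 262 to 325 CPM in WT libraries, a difference that Rgs5 carried at -0.79 on the log2 scale. Of the 7 mural markers 5 were positive, with a median of 0.20, and Cspg4 at 0.71 and Notch3 at 0.58 lay above WT without overlap. None of these passed. Lymphocyte markers summed to 3.80 to 5.79 CPM in KO libraries and 6.03 to 8.05 CPM in WT libraries. Skeletal muscle markers reached 42.5 CPM in KO 4, against 5.42 and 5.75 CPM in KO 5 and KO 6 and 4.00 to 12.2 CPM in WT libraries, and bone and cartilage markers were at 29.4 to 33.2 CPM in KO libraries and 21.7 to 27.9 CPM in WT libraries. The T cell gene Trbc2, the bone genes Bglap and Bglap2 and the muscle gene Myog were at 0 in at least 1 library.

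Levels between genes were compared per transcript length, in TPM. Pcna was the most abundant, at 60.7 to 76.7 TPM in KO libraries and 67.5 to 88.6 TPM in WT libraries, followed by Cdkn1b at 51.4 to 63.0 TPM in KO libraries and 52.0 to 61.2 TPM in WT libraries, and these 2 ranges overlap in part. Ccnd1 came next, at 28.2 to 30.8 TPM in KO libraries and 21.7 to 23.0 TPM in WT libraries. It stood clear of Ccnd3, which reached at most 19.5 TPM in any library, while Ccnd2 stayed at 2.52 to 4.35 TPM, so the 3 D-type cyclins kept 1 order in every library. The MCM subunits, which assemble in equal numbers into 1 ring, had unequal transcript levels, from 1.77 to 2.97 TPM for Mcm3 over all libraries up to 12.0 to 15.1 TPM for Mcm7. Mitotic genes formed the low end, with Ccnb1, Ccnb2, Plk1, Aurkb, Bub1 and Cenpf below a median of 2 TPM and with overlapping ranges. Mki67, at 2.90 to 4.71 TPM in KO libraries and 2.32 to 5.41 TPM in WT libraries, is long and so gathers more counts than its level per length would show.

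**Figure D4:**
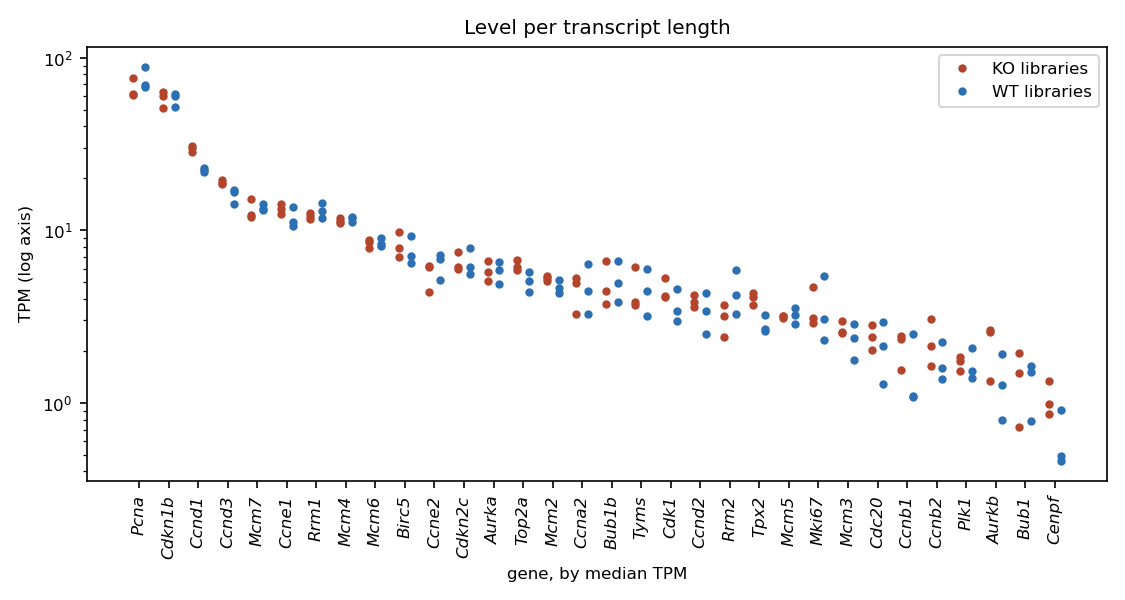
TPM of each of the 32 genes in each library on a log axis, ordered by the median over 6 libraries, with KO points left of WT points. Pcna and Cdkn1b lie above 50 TPM and Cenpf near 1 TPM, and Ccnd1 has its KO points above its WT points.

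Beyond the 32 genes, 5 further lists cover the pathway, and 0 of their genes passed the edgeR test over all genes. Of 27 genes of cyclin-dependent kinases and the RB and E2F switch, 14 were positive and 13 negative, with a median log2 fold change of 0.032. Of the 27, 1 gene was at an unadjusted p under 0.05, against 9.14% of all genes. That gene was Cdk6, the kinase partner of D-type cyclins. It was at 4.46, 5.19 and 5.75 CPM in KO libraries, against 2.76, 1.97 and 3.13 CPM in WT libraries, so that every KO library lay above every WT library. Its log2 fold change of 0.93 (standard error 0.24) did not pass (edgeR adjusted p = 0.341). Next in this list by p were Mnat1 at -0.22, E2f7, an E2F repressor, at 0.53, and Foxm1, an activator of mitotic genes, at 0.47 with overlap. Leaving out single samples gave 0.31 to 0.75 for E2f7 and 0.23 to 0.64 for Foxm1.

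Of 20 inhibitors and anti-proliferative genes, the members Cdkn1b and Cdkn2c included, 13 were positive and 7 negative, with a median of 0.081. At an unadjusted p under 0.05 there were 2, in opposite directions, close to the share of 9.14% over all genes. Cdkn1a, for the stress-induced inhibitor p21, was at 78.5, 88.2 and 86.6 CPM in KO libraries, against 46.3, 60.02 and 51.8 CPM in WT libraries. The groups were well apart, with a log2 fold change of 0.66 (standard error 0.14; edgeR adjusted p = 0.258). With DESeq2, which called 1.52% of all genes against 0.0952% by edgeR, its adjusted p was 0.00531. With 6 separate libraries its edgeR adjusted p was 0.0473. That fit counts KO 5 and KO 6 separately, although they agreed nearly to within sampling noise, so its p is too small. Cdkn1c, for the related inhibitor p57, was at 2.64, 2.14 and 3.19 CPM in KO libraries, against 4.81, 4.35 and 3.89 CPM in WT libraries. All KO libraries lay below all WT libraries, with a log2 fold change of -0.72 (standard error 0.18; edgeR adjusted p = 0.33). Wee1, a kinase that restrains CDK1, was at 0.39 and Trp53, for p53, at 0.25, both without overlap and both short of the threshold. For Wee1 KO 4, at 5.86 CPM, barely cleared WT 1, at 5.68 CPM, and the log2 fold change was 0.13 without KO 5 and KO 6.

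The origin licensing and DNA replication list of 47 genes leaned to lower values, with 15 positive and 32 negative and a median of -0.10. Of the 47, 1 gene was at an unadjusted p under 0.05, against 9.14% of all genes. Both KO samples lay below all WT samples in 10 of 47, against the 15.5% given above for all genes, and above them in 2, against 11.8%. By p the first were Fen1, a flap nuclease of lagging-strand synthesis, at -0.29, Slbp, which binds histone mRNA, at -0.27, and the origin recognition subunits Orc5 and Orc2 at -0.23 and -0.22, and 0 of these passed. Of 16 genes of nucleotide supply 7 were positive and 9 negative, with a median of -0.020 and 0 at an unadjusted p under 0.05, against the same 9.14%. Its first genes were Shmt1 at 0.54, Tk1, the thymidine kinase of dividing cells, at 0.43, Dut at -0.19 and Rrm2b at -0.21.

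The mitosis and cytokinesis list of 61 genes leaned the other way, with 43 positive and 18 negative and a median of 0.17. Of the 61, 4 were at an unadjusted p under 0.05, against 9.14% of all genes. The summed CPM of this list overlapped between genotypes. It was 435, 406 and 409 in KO libraries 4, 5 and 6 and 442, 408 and 387 in WT libraries 1, 2 and 3. The part that KO 4 has in this lean was not tested. Both KO samples lay above all WT samples in 10 and below them in 4, against 11.8% and 15.5% of all genes. Prc1, which bundles microtubules of the central spindle, was at 10.9, 8.52 and 8.66 CPM in KO libraries, against 7.15, 5.43 and 5.34 CPM in WT libraries. All KO libraries lay above all WT libraries, with WT 1 the nearest (log2 fold change 0.70, standard error 0.19; edgeR adjusted p = 0.372). Cdca8, a passenger complex subunit, was at 0.58, Spc25, a kinetochore protein, at 0.76, and Troap at 1.11 with under 1 CPM in every library. In this list KO 4 lay above KO 5 and KO 6 in 53 of 61 genes and WT 1 was the highest WT library in 44, and both held for 41, as for most of the mitotic members above.

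**Figure D5:**
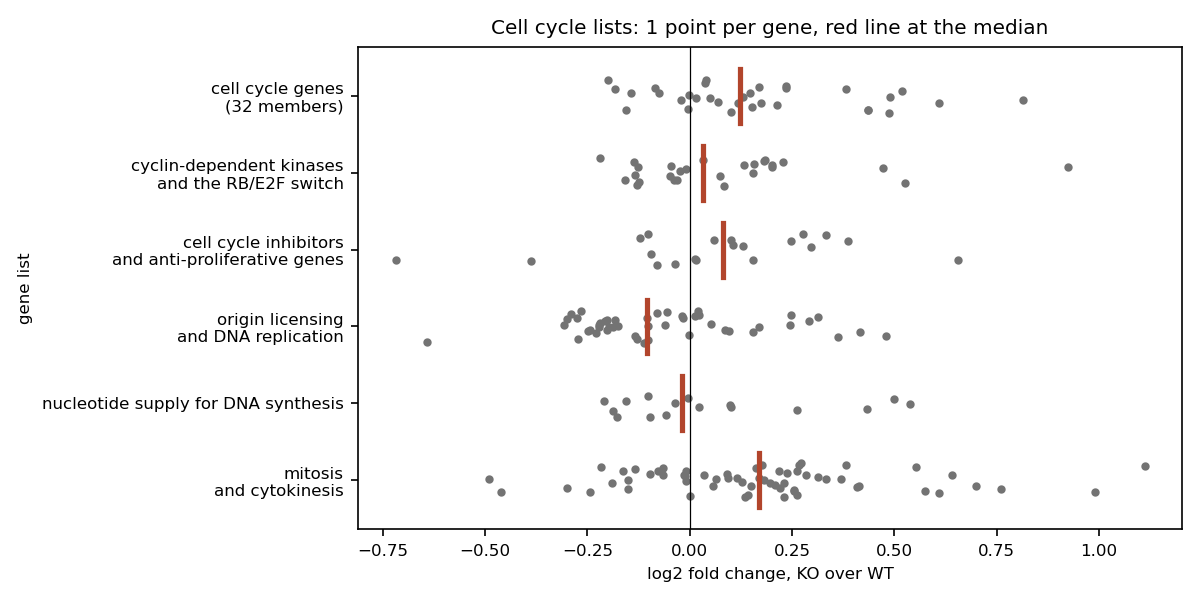
Log2 fold change, KO over WT, of each gene in the 32 cell cycle genes and in 5 further lists, with the median of each list as a red line. The medians are 0.12 for the 32 genes, 0.17 for mitosis and cytokinesis and -0.10 for origin licensing and DNA replication, and the points of every list lie on both sides of 0.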

How the data were processed

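Per the labels, total RNA with an integrity number above 8.0 was made into libraries with a stranded mRNA kit. The submitters' processing notes name Trimmomatic 0.38, STAR 2.6.0a, RSEM 1.3.0 and GRCm38. Annotation release and strand setting: not given in the sources used here. Per the file headers, the deposited files hold RSEM expected counts, TPM and FPKM per gene, and the deposited FPKM were not used here. Symbols came from GENCODE vM21 for 35243 of 36793 identifiers, and the other 1550 held 0.224 to 0.263% of counts.

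The authors' expected counts were rounded, and KO 5 and KO 6 were summed. Genes passing filterByExpr were normalised by TMM and tested for genotype with the quasi-likelihood test of edgeR 4.0.16 in R 4.3.3 (limma 3.58.1), at a Benjamini-Hochberg adjusted p of 0.05 over 16809 genes. CPM use TMM library sizes. Standard errors were taken from the F statistic, and intervals from the t distribution with the fit's degrees of freedom. The test was checked on simulated data. With a few mice a genotype, p-values measure the spread between these samples only.

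The 32 genes, further lists and markers were chosen with earlier results of these data known. All 32 are named. Of each further list the 4 genes with the smallest p are named. Alternatives were DESeq2 1.42.0, other scalings, TPM with limma, no filter, 6 separate libraries and leaving out each sample.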

Additional observations from a re-analysis of the deposited data

How the results depend on the processing

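Over all genes, 16 passed at an FDR of 0.05, against 30 at 0.10, 144 with 6 separate libraries, 255 with DESeq2, 81 without a filter, and 7 to 14 when single samples were left out. The cause was not tested. Of the 32 cell cycle genes 0 passed in each of these. Their median log2 fold change, 0.12, ran from 0.0011 without KO 4 to 0.27 without WT 1. Leaving out KO 4, or KO 5 and KO 6, leaves 1 KO sample that is assumed to vary like the WT samples. The sign of the log2 fold change turned in 18 of the 32 genes under at least 1 alternative, and in 17 when single samples were left out. Most were near 0, but Rrm2, at -0.20, and Ccna2, at -0.18, were among them. The cause was not tested. With 6 separate libraries Bub1 was at -0.051 and Mki67 at -0.021. Mcm4 and Mcm6 were at 0.0059 and 0.0068 with DESeq2, at 0.0074 and 0.0083 with RLE size factors, and at 0.012 and 0.013 without a filter. Cdkn1b was at -0.014 with upper-quartile scaling. With TPM and a pseudocount of 0.1, Cdkn1b was at -0.037, Cdkn2c at -0.0090, Ccna2 at 0.043 and Bub1b at 0.054, and with a pseudocount of 1 at -0.036, -0.0094, 0.031 and 0.047. Leaving out KO 4, WT 1, WT 2 or WT 3 gave log2 fold changes from -0.028 to 0.081 for Cdkn1b, -0.077 to 0.023 for Mcm4, -0.082 to 0.041 for Mcm5, -0.053 to 0.062 for Mcm6, -0.055 to 0.070 for Mcm7, -0.16 to 0.0091 for Rrm1, -0.46 to 0.056 for Rrm2, -0.26 to 0.32 for Tyms, -0.36 to 0.10 for Ccna2, -0.039 to 0.17 for Aurka, -0.059 to 0.39 for Aurkb, -0.042 to 0.28 for Plk1, -0.28 to 0.36 for Bub1, -0.37 to 0.14 for Bub1b, -0.036 to 0.39 for Birc5 and -0.29 to 0.54 for Mki67. Without KO 5 and KO 6, Cdkn1b at -0.053, Mcm4 at 0.071, Mcm6 at 0.050, Pcna at 0.027, Rrm2 at 0.045 and Bub1b at 0.19 were on the other side of 0. No paired analysis was possible because the labels give no batch and no pairing of WT mice with KO mice.

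Under scalings added after seeing the data, KO 4 lay above KO 5 and KO 6 in 29 of the 32 genes by total counts, 27 by RLE, 29 by upper quartile and 22 by TPM, where 62.3%, 51.7%, 62.6% and 42.4% of all genes did. WT 1 was the highest WT library in 22, 20, 22 and 20. The share of 33.2% of all genes given above for WT 1 is that of the main scaling only. Counts per gene and library ran from 17 to 3060 over the 32 genes. In the mitotic genes they ran from 17 for Aurkb in WT 3 to 838 for Mki67 in WT 1, and small changes there were not detectable.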

Other observations

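The TPM of Bub1 was 0.72 in KO 5 and 1.94 in KO 6, although the expected counts were 38 and 43. The transcript length assigned to the gene differed by 2.13 times between the longest and the shortest library. For Aurkb this ratio was 1.85 and for Cenpf 1.73. For low genes with several transcripts the TPM of single libraries thus moved with the length as well as with the count.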
